A study of Homo sapiens with 10 samples.

Results

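The comparison set every K562 library with guides to HS2, an enhancer of the β-globin cluster, against the libraries with the control guide sgGal4. All 8 libraries titled sgHS2 were members, 2 for each of 4 effector groups, and with the 2 sgGal4 libraries they made up all 10 libraries of the series. K562 is a human erythroleukemia cell line. The 4 sgHS2 groups were dCas9-KRAB, dCas9-LSD1, enCRISPRi-LK and enCRISPRi-KL, and in the last pair the effector on dCas9 was joined by a second one brought by the guide's MS2 hairpins through the MCP coat protein (KRAB in LK, LSD1 in KL). Per the methods, K562 carried the dCas9 fusion under a doxycycline-inducible promoter and the guides from a lentivirus, and both were selected by flow sorting, so each group was a sorted population and not stated to be 1 clone. The sorted cells were then treated with doxycycline to induce dCas9 before analyses, of which the methods name qRT-PCR and ChIP-seq and not RNA-seq. All 4 HS2 guides were used together. The study names sgGal4 a nontargeting guide, and its ChIP-seq methods set aside regions that were enriched with this guide. Which effector the sgGal4 cells carried, if any, was not given by the labels. The study's caption for its RNA-seq plot names nontransduced cells as the reference, while the control libraries used here are titled sgGal4. The study calls the libraries of a group 2 experiments, and the labels do not say whether these were separate cultures, so that p-values measure the spread between these libraries.

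HS2 is one of the DNase hypersensitive sites of the β-globin locus control region, which acts in erythroid cells as a distal enhancer of the embryonic ε-globin gene HBE1, the fetal γ-globin genes HBG1 and HBG2, and the adult genes HBD and HBB. KRAB recruits a corepressor complex that deposits H3K9 methylation, and LSD1 removes methyl groups from H3K4. The core of HS2 is known for a tandem pair of motifs for AP-1 and NF-E2 proteins, and its sequence is shown because it is the site on which all 4 effector groups converge. A search for TGAGTCA on both strands over 20000 bases upstream of the canonical HBE1 start found 9 matches and 1 pair within 12 bases of each other. The pair lies 10.8 kb upstream of that start (plus strand of chromosome 11, GRCh37, chr11:5301903-5302079, the 2 matches in capitals). In GENCODE this stretch overlaps 0 exons and lies within introns of longer HBE1 and HBG2 transcripts.
HS2: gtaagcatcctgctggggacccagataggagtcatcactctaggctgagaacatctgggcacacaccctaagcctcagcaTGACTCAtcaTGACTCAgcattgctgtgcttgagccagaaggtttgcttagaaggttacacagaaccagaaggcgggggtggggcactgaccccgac

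RNA levels were given in TPM, a unit that is corrected for gene length and relative to the other transcripts of the library. The depth of the libraries is unknown, because TPM keeps no read counts. The listed values summed to between 790470 and 844414 TPM, and the 13 mRNAs of the mitochondrial genome took between 39.9% and 53.6% of them, with the highest share in sgGal4 replicate 1. KDM1A, which encodes LSD1, and ZNF10, the source of a KRAB domain in common use, did not follow the effector names in every group, so groups are named by their labels throughout. In bulk RNA, fewer cells of a type and less RNA per cell cannot be told apart. Of the 10 erythroid markers, 9 passed the filter, and the defining factor GATA1 was listed at 0 in all 10 libraries. Genes that every cell uses, such as HSF1 and VARS, were listed at 0 as well, so a listed 0 says nothing of expression. Pearson's r over the tested genes, which are not independent, ranged from 0.932 to 0.950 when an sgHS2 library was set against an sgGal4 library on the log2(TPM + 1) scale, and from 0.936 to 0.958 for pairs taken from different sgHS2 groups.

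The β-like globin genes, the targets of HS2, were read first. HBE1 was at 1376 and 1620 TPM in the sgGal4 libraries, and its lowest, median and highest values in the 8 sgHS2 libraries were 361, 626 and 1019 TPM. All 8 sgHS2 libraries therefore lay below both sgGal4 libraries. The mean of the 4 sgHS2 groups minus sgGal4 was -1.29 on the log2(TPM + 1) scale (limma, SE 0.102, adjusted p = 1.03e-05), a 2.45-fold lower level. HBG2 stood at 941 and 673 TPM with sgGal4 and at 222, 470 and 698 TPM (lowest, median, highest) with sgHS2, so that its groups overlapped in 1 control library, and its difference was -0.93 (SE 0.125, adjusted p = 0.00117). HBG1 (-0.40, adjusted p = 0.204), HBD (0.30, adjusted p = 0.471) and HBB (-0.64, adjusted p = 0.579) did not pass in limma. Reads with more than one location were dropped, so the values of the near-identical HBG1 and HBG2 rest on part of their transcripts. The sum of the 5 genes was 2459 and 2414 TPM with sgGal4 and lay between 648 and 1707 TPM with sgHS2, with no overlap. The mean difference of the sum was -1.09 (limma, SE 0.078, adjusted p = 3.85e-06), and a two-sided exact permutation test of 8 against 2 libraries gave p = 0.0444, the smallest that 45 splits allow. With the 8 sgHS2 libraries fitted as 1 group without a term for the effector, the adjusted p of the sum was 0.0771, since the spread between effectors then counts as error. In the plot of TPM by library, the sum falls from sgGal4 to all 4 groups.

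**Figure D1:**
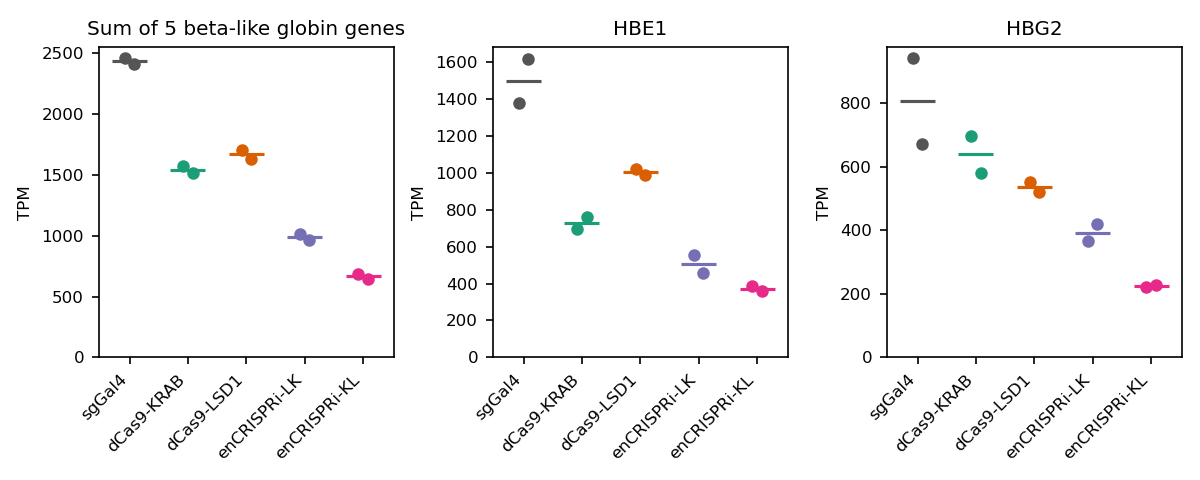
TPM of the summed β-like globin genes, HBE1 and HBG2 in each of the 10 libraries, by group on the x axis. Points are single libraries and bars are group means of 2 libraries. For the sum and HBE1, all 8 sgHS2 libraries lie below both sgGal4 libraries.

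With HBE1 and HBG2 included, 330 of the 10127 tested genes (3.26%) differed between the mean of the 4 sgHS2 groups and sgGal4 at an adjusted p under 0.05 in limma. Of these, 180 (1.78%) were higher and 150 (1.48%) were lower. The lower genes changed more, with a median log2 difference of -1.16 against 0.72 for the higher genes, and a difference of at least 1 in size was reached by 92 lower and 43 higher genes. The median over all tested genes was 0.03. All 8 sgHS2 libraries lay on one side of both sgGal4 libraries for 1197 genes (11.8%), 661 above (6.53%) and 536 below (5.29%), and this held for 301 of the 330 called genes. The count rested on the control libraries, since 90 genes (34 higher, 56 lower) were called without sgGal4 replicate 1, 83 of them among the 330 in the same direction, and 274 (215 higher, 59 lower) without replicate 2. After removal of the mitochondrial mRNAs and rescaling, 389 genes were called, 144 higher and 245 lower, so that the balance of higher and lower calls turned with the scaling. Because all comparisons share the same pair of sgGal4 libraries, a difference between the sgGal4 population and the sgHS2 populations that is unrelated to HS2 cannot be told apart from an effect of targeting HS2.

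**Figure D2:**
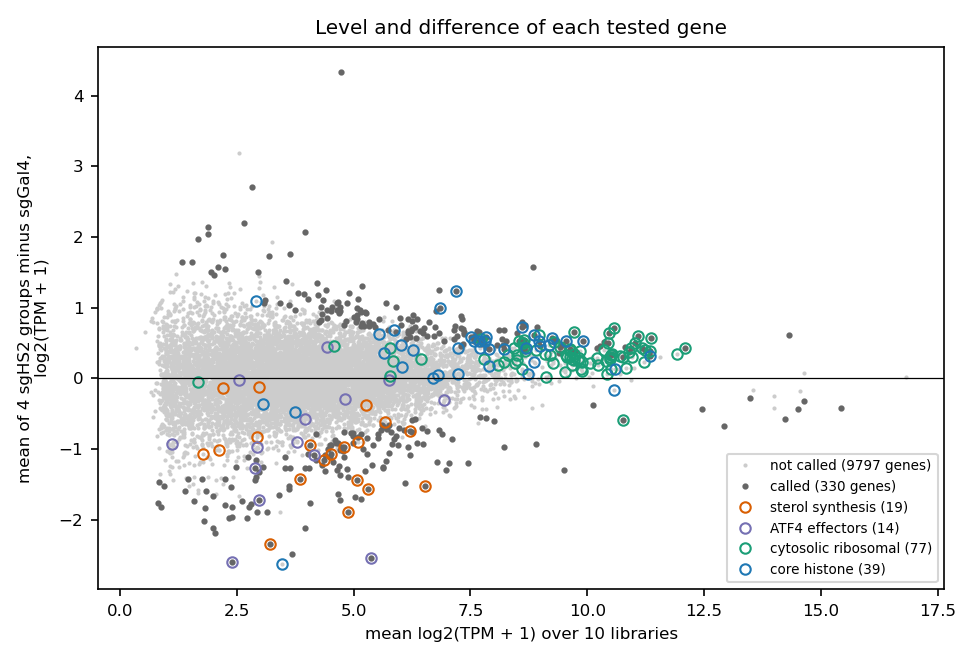
Mean log2(TPM + 1) of each tested gene over the 10 libraries (x axis) and its difference between the mean of the 4 sgHS2 groups and sgGal4 (y axis). Dark points are the 330 called genes, and open circles mark sterol synthesis enzymes, all below 0, ATF4 effectors, cytosolic ribosomal proteins and histones, of which the last 2 lists lie mostly above 0.

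Each effector was also set against sgGal4 alone. With dCas9-KRAB 164 genes were called (1.62%), 89 higher (0.879%) and 75 lower (0.741%). With dCas9-LSD1 there were 88 (0.869%), 31 higher (0.306%) and 57 lower (0.563%). With enCRISPRi-LK there were 203 (2%), 119 higher (1.18%) and 84 lower (0.829%), and with enCRISPRi-KL 139 (1.37%), 65 higher (0.642%) and 74 lower (0.731%). In the same direction in all 4 comparisons, 31 genes were called (0.306% of those tested), 9 higher (0.0889%) and 22 lower (0.217%). Of the 330 genes of the mean comparison, 75 were called in 0 of the 4 comparisons, 111 in 1, 77 in 2, 36 in 3 and 31 in all 4. Leaving out 1 library at a time moved the count of 31 to between 4 and 64, with the lowest count without dCas9-KRAB replicate 2 and the highest without sgGal4 replicate 2. The 22 lower genes had 8 members of the sterol and fatty acid lists, 3 of the ATF4 and amino acid lists and 1 ribosomal protein gene, and the 9 higher genes had 3 ribosomal protein genes. The shared sign of the 31 genes was fixed by how they were chosen, and the map by library shows the sizes.

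**Figure D3:**
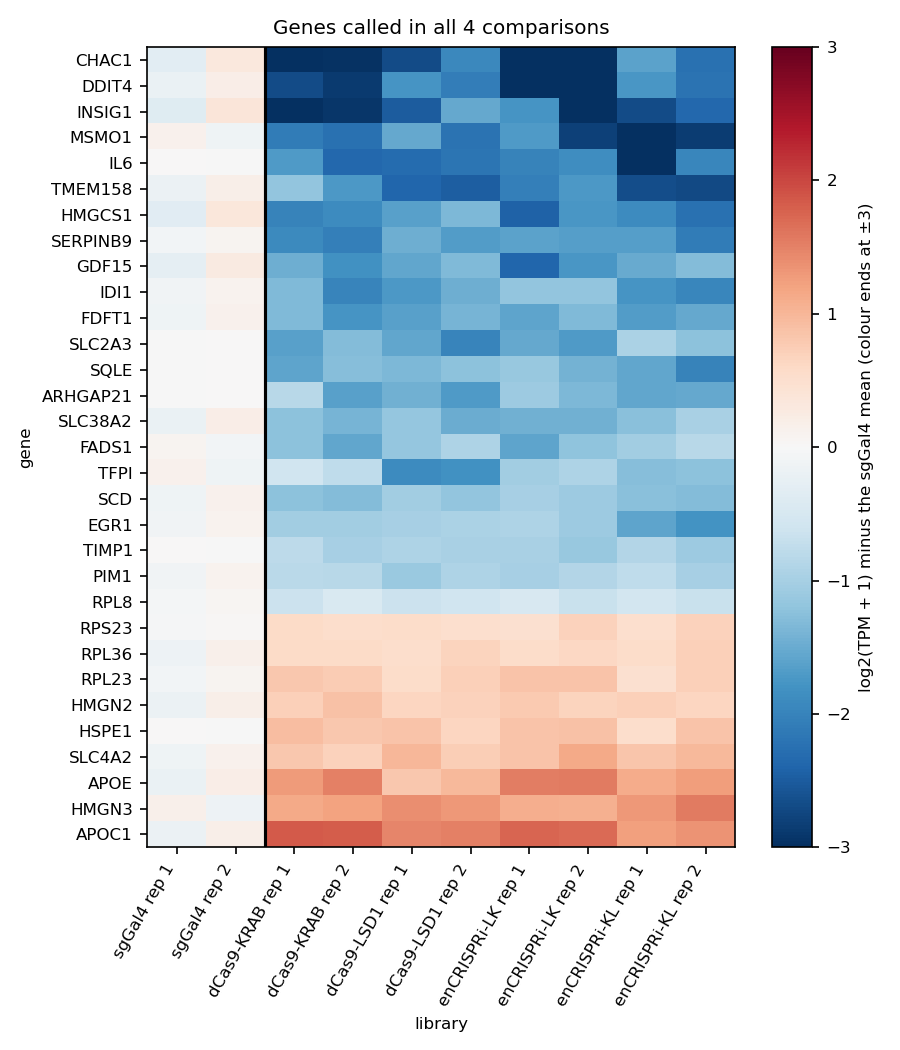
The 31 genes called in all 4 comparisons (rows) in the 10 libraries (columns), coloured by log2(TPM + 1) minus the mean of the 2 sgGal4 libraries, with colour ending at ±3. The 22 genes at the top are lower and the 9 at the bottom higher in all 8 sgHS2 libraries.

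The clearest group among the shared decreases was sterol synthesis. Cells make cholesterol from acetyl-CoA by the mevalonate pathway and then by the steps from squalene onward, and transcription of these enzymes is driven by SREBP2, which is held in the endoplasmic reticulum by INSIG proteins when sterols are plentiful. Of the 9 tested mevalonate pathway genes, 5 fell and 0 rose, and of the 10 tested genes of the later steps, 6 fell and 0 rose, against 1.48% lower among all genes. The medians of the lists were -1.01 and -1.02. All 19 had a log2 difference below 0. For 14 of them all 8 sgHS2 libraries lay below both sgGal4 libraries, against 5.29% of all tested genes.

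HMGCS1, the synthase that starts the committed part of the pathway, was at 66.2 and 105 TPM with sgGal4 and at 14.6, 21.9 and 32.0 TPM (lowest, median, highest) with sgHS2. Its difference was -1.90 (SE 0.232, adjusted p = 0.000606), between -1.49 and -2.09 in the 4 groups, and every sgHS2 library lay well under both controls. IDI1, the isomerase of the pathway's isoprene units, was at 86.3 and 102 TPM with sgGal4 and between 23.1 and 41.0 TPM with sgHS2 (-1.57, adjusted p = 0.000606). ACAT2 (-1.16), a thiolase, and FDPS (-0.75), the farnesyl diphosphate synthase, also fell. MVK, the mevalonate kinase, was 1.01 lower with no overlap and did not pass (adjusted p = 0.106).

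Among the later enzymes, FDFT1, which makes squalene, was at 194 and 233 TPM in the sgGal4 libraries and at 61.9, 71.7 and 84.4 TPM (lowest, median, highest) with sgHS2. This was the tightest of the group, with differences between -1.46 and -1.60 in the 4 effector groups and a mean of -1.53 (SE 0.156, adjusted p = 0.000205). SQLE, the squalene epoxidase, went from 73.2 and 75.1 TPM to between 17.7 and 33.4 TPM (-1.44, adjusted p = 0.000919). MSMO1, a sterol C4 methyl oxidase, had the largest change of these enzymes, from 36.0 and 30.1 TPM to between 2.26 and 10.7 TPM (-2.35, SE 0.324, adjusted p = 0.00139). CYP51A1 (-1.07), DHCR7 (-0.97) and LSS (-0.94) also fell. DHCR7 kept the call in 14 of 23 alternatives and LSS in 8 of 23, while CYP51A1 kept it in 22 of 23. HMGCS1, IDI1, FDFT1, SQLE and MSMO1 were called in all 4 comparisons.

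Of the 12 tested genes for SREBP regulation and cholesterol uptake, 3 fell and 0 rose (median -0.50). INSIG1, the sterol-responsive retention factor and itself an SREBP target, went from 38.1 and 64.5 TPM to 4.96, 7.43 and 16.4 TPM (lowest, median, highest), a difference of -2.49 (SE 0.349, adjusted p = 0.00156). SREBF2, the gene of SREBP2, fell by 0.95 on the log2 scale (adjusted p = 0.0350) and STARD4, a sterol transporter, by 1.39 (adjusted p = 0.0348). SREBF2 kept the call in 10 of 23 alternatives and STARD4 in 12 of 22. SREBF1, the gene of SREBP1, was -0.28 with overlapping groups (adjusted p = 0.471). Of the 12 tested genes of fatty acid synthesis and desaturation, 5 fell and 0 rose (median -0.70). SCD, the stearoyl-CoA desaturase, went from 194 and 229 TPM to 84.2, 90.3 and 105 TPM (-1.18, SE 0.128, adjusted p = 0.000339), and its differences lay between -1.05 and -1.28 in the 4 groups. FADS1 (-1.19) and FADS2 (-1.74), desaturases of polyunsaturated fatty acids, FASN (-0.86) and ACSS2 (-0.92) fell as well. ACSS2 kept the call in 8 of 23 alternatives. Over the 4 lists together 19 of 43 genes fell and 0 rose, against 1.48% lower among all tested genes. A limma F-test among the 4 sgHS2 groups called 0 of the 43, which does not show that the effectors acted alike. Without sgGal4 replicate 1 the calls were 2 in the mevalonate list, 3 among the later enzymes, 1 for SREBP and uptake and 3 for fatty acids, and without replicate 2 they were 3, 4, 1 and 3, with medians between -0.44 and -1.29.

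The promoters of these genes were read for the sterol regulatory element, in the form TCACNCCA on both strands of the 250 bases upstream of the start (RefSeq, GRCh38.p14). Of the 19 genes that fell, 14 had a promoter in the table, and 2 of these, MSMO1 and SREBF2, held the letters, against 3.79% of the 7740 tested genes with a promoter and 8 of all 112 called lower (7.14%), and 3.2% of all 35116 promoters. Their stretches are shown with the match in capitals, MSMO1 at chr4:165327467-165327566 and SREBF2 at chr22:41832926-41833025, both on the plus strand. A match is a description of letters only.
MSMO1: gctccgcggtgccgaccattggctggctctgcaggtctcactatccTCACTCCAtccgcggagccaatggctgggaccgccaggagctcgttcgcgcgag
SREBF2: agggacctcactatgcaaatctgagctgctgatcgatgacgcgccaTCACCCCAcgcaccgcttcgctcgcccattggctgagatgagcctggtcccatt

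The second group of shared decreases was the stress response downstream of ATF4, a transcription factor whose mRNA is translated when eIF2α is phosphorylated and which acts on genes of amino acid supply and of cell stress. Of the 14 tested ATF4 effectors, 5 fell and 0 rose, with a median of -0.92, against 1.48% lower among all genes. CHAC1, a glutathione-degrading enzyme, had the largest decrease of all called genes. It was at 16.7 and 26.8 TPM with sgGal4 and at 1.19, 2.13 and 6.33 TPM (lowest, median, highest) with sgHS2, a difference of -2.60 (SE 0.332, adjusted p = 0.000817). DDIT4, which restrains mTORC1, was at 146 and 195 TPM with sgGal4 and at 13.5, 30.4 and 49.9 TPM with sgHS2 (-2.55, SE 0.189, adjusted p = 6.61e-06), with no sgHS2 library near the controls. ATF3 (-1.73, adjusted p = 0.00436), SESN2 (-1.27, adjusted p = 0.0305) and DDIT3, the gene of CHOP (-1.09, adjusted p = 0.0172), completed the list, all without overlap.

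ATF4 itself was at 124 and 164 TPM with sgGal4 and at 86.4, 124 and 134 TPM with sgHS2, so its groups overlapped, and its difference of -0.30 did not pass (adjusted p = 0.260). TRIB3, a pseudokinase among its effectors, was -0.90 with an adjusted p of 0.0925. Of the 15 tested genes of amino acid synthesis, 3 fell and 0 rose (median -0.39), with 1 call without either sgGal4 replicate and a median of -0.07 without replicate 2. ASNS, the asparagine synthetase, went from 74.8 and 79.9 TPM to 19.4, 34.8 and 46.4 TPM (-1.31, SE 0.184, adjusted p = 0.00156). ALDH1L2 (-1.54) and CTH, the cystathionine γ-lyase (-1.78), were the others, and CTH differed between its sgGal4 libraries, at 10.5 and 29.6 TPM. CTH kept the call in 9 of 22 alternatives. Of the 12 tested amino acid transporters, 2 fell and 0 rose. SLC38A2, a neutral amino acid transporter, was at 225 and 298 TPM with sgGal4 and between 91.7 and 132 TPM with sgHS2 (-1.30, adjusted p = 0.000369), and SLC7A11, the cystine transporter, fell by 1.67 on the log2 scale (adjusted p = 0.00959). Among 19 cytosolic tRNA synthetases 1, AARS, fell (-0.67, adjusted p = 0.0432), and it kept the call in 7 of 23 alternatives. Among all tested genes 1.48% were called lower. Without sgGal4 replicate 1 the ATF4 list had 3 calls and a median of -1.09, and without replicate 2 it had 2 calls and a median of -0.61. The plot of sterol and ATF4 genes shows the differences for each effector.

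**Figure D4:**
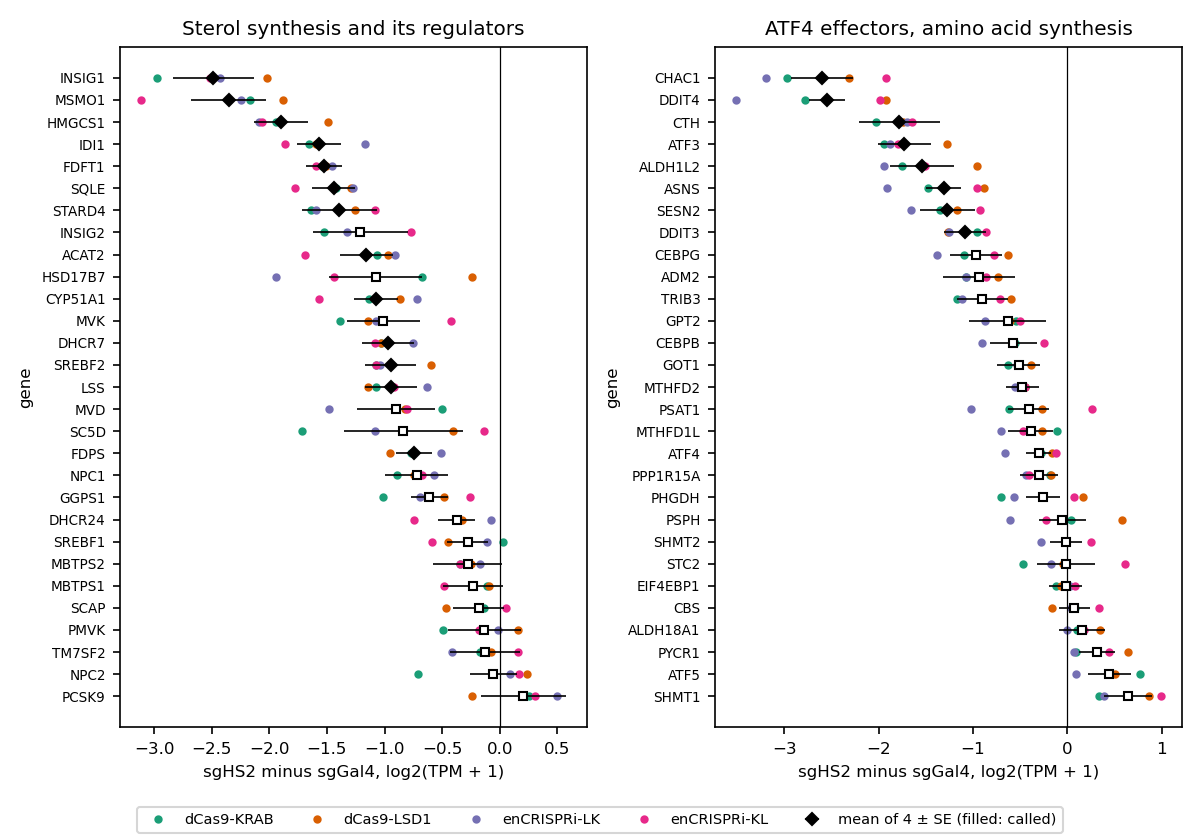
Difference from sgGal4 in log2(TPM + 1) for genes of sterol synthesis, SREBP regulation and uptake (left) and for ATF4 effectors and amino acid synthesis (right). Coloured points are the 4 effector groups, and black symbols are their mean ± SE, filled where called. INSIG1 (-2.49) and CHAC1 (-2.60) head the panels.

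The composite element TGATGNAA of ATF4 and C/EBP proteins was searched in the same way. It stood in 3 of the 8 promoters found for the 11 genes that fell in the ATF4 and amino acid lists, against 2.05% of the tested genes and 7 of all 112 called lower (6.25%), and 3.14% of all promoters. The 3 genes are shown with the match in capitals, ASNS on the minus strand of chr7:97872423-97872522, ATF3 on the plus strand of chr1:212565170-212565269 and CHAC1 on the plus strand of chr15:40953221-40953320, where the match is on the opposite strand. None of the 14 promoters of the sterol and fatty acid genes that fell held this motif, and none of the 8 held TCACNCCA.
ASNS: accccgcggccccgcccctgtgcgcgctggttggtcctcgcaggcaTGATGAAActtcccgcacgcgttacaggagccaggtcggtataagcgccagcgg
ATF3: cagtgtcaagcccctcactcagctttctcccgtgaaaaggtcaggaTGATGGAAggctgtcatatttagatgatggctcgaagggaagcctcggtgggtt
CHAC1: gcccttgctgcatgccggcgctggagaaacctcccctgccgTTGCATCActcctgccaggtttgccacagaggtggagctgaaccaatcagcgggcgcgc

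Several of the remaining shared decreases code for cytokines or for inhibitors of proteases. IL6, the cytokine, was at 12.8 TPM in both sgGal4 libraries and at 0.58, 2.23 and 3.24 TPM (lowest, median, highest) with sgHS2 (-2.19, SE 0.356, adjusted p = 0.00397, and 0.0765 without sgGal4 replicate 1). GDF15, a stress-induced member of the TGF-β family, went from 51.5 and 74.3 TPM to between 11.2 and 24.7 TPM (-1.63, adjusted p = 0.00142). TIMP1, an inhibitor of matrix metalloproteinases, went from 510 and 502 TPM to between 229 and 292 TPM (-0.97, SE 0.109, adjusted p = 0.000345), and TFPI, the inhibitor of tissue factor, from 372 and 309 TPM to between 91.4 and 225 TPM (-1.19, adjusted p = 0.000189). SERPINB9, an inhibitor of granzyme B, fell by 1.77 on the log2 scale (adjusted p = 0.000606). TIMP1, TFPI and ARHGAP21 (-1.39) lie outside the rule for named genes and were added after their values were seen, to complete the 31.

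Of 11 tested immediate early genes 2 fell, EGR1 (-1.18, adjusted p = 0.000919) and JUND (-0.92, adjusted p = 0.0245), and of 10 hypoxia genes 3 fell (median -0.98), among them VEGFA, the endothelial growth factor. Among all tested genes 1.48% were called lower. None of the hypoxia genes was called in all 4 comparisons, and 1 of the 3 that fell, NDRG1, kept the call in 5 of 22 alternatives. VEGFA was at 81.4 and 83.5 TPM with sgGal4 and at 24.6, 33.3 and 54.7 TPM with sgHS2 (-1.23, SE 0.158, adjusted p = 0.000817). BNIP3L (-1.12) and NDRG1 (-1.42) were the others, and 1 hypoxia gene was called without sgGal4 replicate 1 and 1 without replicate 2. SLC2A3, a glucose transporter, was at 153 and 158 TPM with sgGal4 and between 38.9 and 80.5 TPM with sgHS2 (-1.48, adjusted p = 0.000339). It was 1 of the 3 genes that fell among the 15 tested on the glycolysis list, whose median was -0.07. PIM1 (-0.91) and SOCS2 (-0.73), targets of STAT5 signalling, fell among 7 tested genes of that list. ABCB1, CDKN1A and BBC3, which code for a drug efflux pump, the p21 cell cycle inhibitor and the PUMA death factor and were chosen after their values were seen, fell by 2.12, 2.02 and 1.80 on the log2 scale. MDM2, which like CDKN1A and BBC3 is a target of p53, was at 0.39 (adjusted p = 0.221). Replication and mitosis genes had 0 calls in either direction out of 20 in limma (3 at an unadjusted p under 0.05), with a median of 0.06.

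The other stress and signalling lists given here had 1 or 2 calls each, where 3.26% of all tested genes were called. Of 18 tested chaperones and unfolded protein response genes of the endoplasmic reticulum 1 rose and 1 fell. CALR, the calreticulin gene, was at 210 and 305 TPM with sgGal4 and at 340, 387 and 465 TPM with sgHS2 (0.63, adjusted p = 0.0150), and HERPUD1, which serves protein degradation at that membrane, was at 45.1 and 50.1 TPM with sgGal4 and at 12.8, 22.2 and 32.4 TPM with sgHS2 (-1.03, adjusted p = 0.0252). The groups did not overlap for either gene, and the median of the list was 0.03, that of all tested genes. Of 9 heat shock response genes 2 rose, HSPA8 and HSPE1 (median 0.29), of 8 interferon genes 1 rose (IFITM2, 0.80, adjusted p = 0.0439), and of 11 NRF2 targets 1 fell. HSPA8 had overlapping groups. HSPA8 and IFITM2 each kept the call in 7 of 23 alternatives, and HERPUD1 kept it in 18. TMEM158, a membrane protein induced by RAS signalling and one of the 22 shared decreases, was at 42.8 and 55.7 TPM with sgGal4 and at 6.64, 9.84 and 20.9 TPM with sgHS2 (-2.11, SE 0.235, adjusted p = 0.000339), again with no overlap.

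APOC1 had the lowest p-value among the shared increases. It encodes an apolipoprotein and lies beside APOE on chromosome 19 (hg19, APOE 45409048 to 45412650 and APOC1 45417504 to 45422606, both on the plus strand). APOC1 was at 169 and 214 TPM in the sgGal4 libraries and at 444, 582 and 682 TPM (lowest, median, highest) with sgHS2, a difference of 1.58 (SE 0.105, adjusted p = 2.17e-06). APOE, the carrier of cholesterol and a target of LXR, was at 49.0 and 64.0 TPM with sgGal4 and at 98.2, 136 and 166 TPM with sgHS2 (1.25, SE 0.140, adjusted p = 0.000339). Every sgHS2 library was above both controls for these neighbours, and each was called with all 4 effectors. Of the 4 tested LXR receptors and targets APOE was the only one called, and the other 3 lay between 0.18 and 0.35. HMGN3 and HMGN2, nucleosome-binding proteins, rose by 1.26 (adjusted p = 0.00319) and 0.72 (adjusted p = 0.00231) on the log2 scale, SLC4A2, an anion exchanger, by 0.88 (adjusted p = 0.00256) and HSPE1, the mitochondrial cochaperonin, by 0.79 (adjusted p = 0.00147). HSPE1 was at 252 and 247 TPM with sgGal4 and between 361 and 471 TPM with sgHS2.

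Small but frequent increases were found among ribosomal protein and histone genes. Of 77 tested cytosolic ribosomal protein genes, 26 rose and 1 fell, against 1.78% higher and 1.48% lower among all genes, and the median was 0.33. For 43 of them all 8 sgHS2 libraries were above both sgGal4 libraries, against 6.53% of all tested genes. RPL23 was at 968 and 1068 TPM with sgGal4 and at 1413, 1698 and 1848 TPM with sgHS2 (0.72, SE 0.088, adjusted p = 0.000606), and RPS23 was at 1870 and 1980 TPM with sgGal4 and between 2704 and 3109 TPM with sgHS2 (0.57, adjusted p = 0.00163). RPL8 went the other way, from 2294 and 2525 TPM to 1524, 1569 and 1739 TPM (-0.58, SE 0.086, adjusted p = 0.00231), and its 4 differences lay within 0.06 of each other. The ribosomal list depended on the controls and the scaling. It had 7 calls (6 higher) without sgGal4 replicate 1, 10 (9 higher) after quantile normalization with a median of 0.12, and 0 without a mean-variance trend (adjusted p = 0.0973 for RPL23). Many ribosomal protein and histone genes have near-identical copies, and their values are uncertain because reads with more than one location were dropped.

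Of 39 tested replication-dependent histone genes, 16 rose and 0 fell (median 0.43). The histone list had 9 calls (8 higher) after quantile normalization and 0 without a mean-variance trend. HIST1H3J was at 53.6 and 97.2 TPM with sgGal4 and at 122, 162 and 270 TPM with sgHS2 (1.24, SE 0.193, adjusted p = 0.00316), and HIST1H4D at 72.0 and 59.2 TPM with sgGal4 and between 95.1 and 186 TPM with sgHS2 (0.99, adjusted p = 0.00253). The sgGal4 libraries differed from each other in these genes, with summed histone TPM of 11193 and 14300 against 14144 to 17546 with sgHS2, and without sgGal4 replicate 1 the list had 1 call and a median of 0.25. Histone mRNAs lack a poly(A) tail and the labels name poly(A) selection, and the part of carry-over of such RNA in these values was not tested. Of 70 nuclear genes of the respiratory chain 5 rose (median 0.28) and of 71 mitochondrial ribosomal protein genes 2 rose (median 0.25). Among all tested genes 1.78% were called higher. The respiratory chain list had 1 call after quantile normalization, and both lists had 0 without a mean-variance trend. Of the 13 mitochondrially encoded mRNAs 6 fell and 1 rose (median -0.28). This list moved with the scaling and the controls. It had 5 calls (2 higher) and a median of -0.02 after quantile normalization, 5 calls (2 higher) without sgGal4 replicate 1, 11 calls (1 higher) without replicate 2, and 3 with size factors. MT-ND5 was at 13614 and 9519 TPM with sgGal4 and between 5931 and 9414 TPM with sgHS2 (-0.68, adjusted p = 0.00195, and 0.757 after quantile normalization), while MT-ND6, the one protein gene on the light strand, was at 15937 and 13482 TPM with sgGal4 and between 16933 and 30489 TPM with sgHS2 (0.61, adjusted p = 0.000606). The plot of gene lists sets these members side by side.

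**Figure D5:**
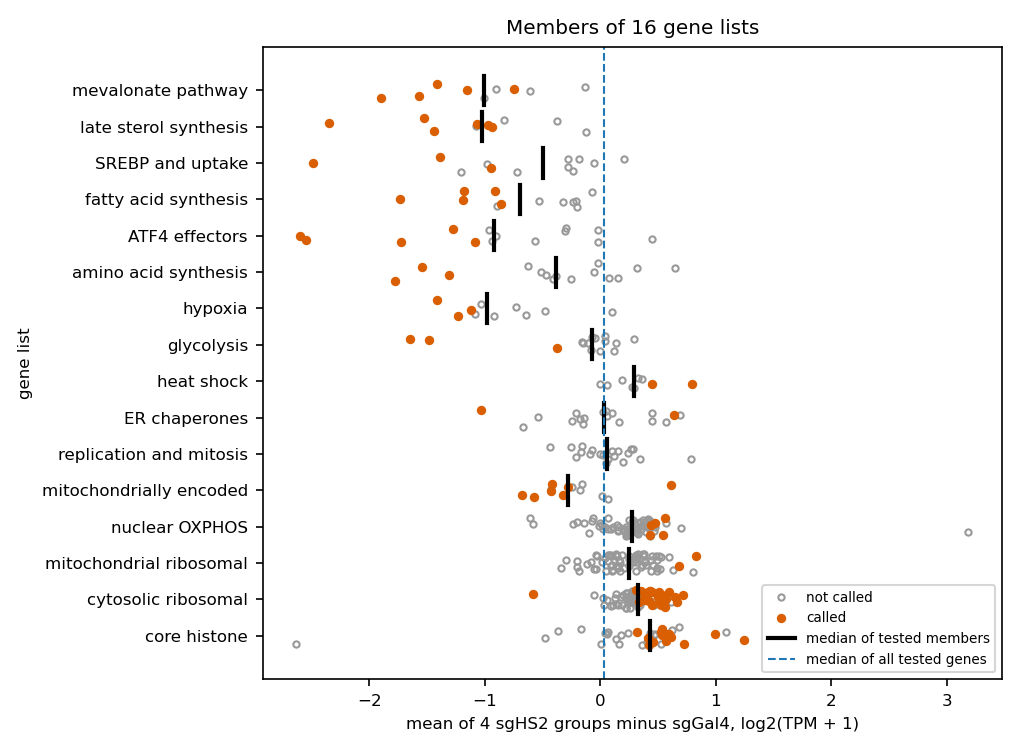
Difference between the mean of the 4 sgHS2 groups and sgGal4 in log2(TPM + 1) (x axis) for the tested members of 16 lists (y axis). Filled points were called, black bars are list medians and the dashed line is the median of all tested genes (0.03), and the sterol lists lie to its left with medians near -1 and the ribosomal and histone lists to its right.

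Outside the β-globin cluster, 1 of 4 tested α-like globin genes and 1 of 18 erythroid transcription factors were called. So were 1 of 10 heme synthesis genes and 2 of 15 red cell membrane and iron genes, against 3.26% of all tested genes. HBZ, the embryonic ζ-globin gene, was at 1034 and 940 TPM with sgGal4 and at 800, 1401 and 2712 TPM (lowest, median, highest) with sgHS2, with overlapping groups. Its mean difference was 0.51 (adjusted p = 0.0251), with 0.45, 1.21, -0.28 and 0.66 in dCas9-KRAB, dCas9-LSD1, enCRISPRi-LK and enCRISPRi-KL, and the call was kept in 11 of 23 alternatives and lost without either sgGal4 replicate. Of 18 tested erythroid transcription factors 1, KLF1, rose. KLF1, an activator of adult globin genes, was at 20.3 and 24.1 TPM with sgGal4 and at 35.9, 41.8 and 52.4 TPM with sgHS2, with no overlap (0.92, SE 0.167, adjusted p = 0.00853, and 0.112 without sgGal4 replicate 1). GATA2 (-0.03) and MYB (0.20) had overlapping groups and adjusted p-values of 0.953 and 0.572. BCL11A, a repressor of the γ-globin genes, was at 1.20 and 1.72 TPM with sgGal4 and at 1.58, 4.61 and 10.0 TPM with sgHS2, and its difference of 1.19 did not pass (adjusted p = 0.0662). ALAD, an enzyme of heme synthesis, rose by 1.37 (adjusted p = 0.0151, and 0.201 without sgGal4 replicate 1) and was the only call among 10 genes of that pathway. FTL, the ferritin light chain, fell by 0.43 (adjusted p = 0.00851, and 0.905 after quantile normalization). EPB41, a red cell membrane protein, fell by 0.54 (adjusted p = 0.0244, and 0.104 and 0.101 without sgGal4 replicate 1 and 2).

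Markers of other cell types were read beside these results. Of 10 eosinophil, basophil and mast cell markers 9 were listed, 5 of these at 0 in every library, and their summed level was 0 and 0.26 TPM with sgGal4 and between 1.57 and 9.59 TPM with sgHS2. That level was nearly all PRG2, the eosinophil major basic protein, which rose by 2.14 on the log2 scale (adjusted p = 0.00353, and 0.0812 without sgGal4 replicate 1). The 10 lymphoid markers, 6 at 0 in every library, summed to 27.3 and 34.9 TPM with sgGal4 and to between 2.33 and 28.8 TPM with sgHS2. CD3D made up most of that sum, at 26.1 and 33.6 TPM with sgGal4 and between 1.65 and 21.3 TPM with sgHS2, with a difference of -1.89 that did not pass (adjusted p = 0.0794). The summed neutrophil and monocyte, megakaryocyte, and stromal and epithelial markers overlapped between the groups. Whether a change of cell state or composition had a part in the other differences was not tested.

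The 4 effector groups were also compared with each other, by an F-test whose contrast leaves out the sgGal4 libraries, although they enter its estimate of the variance. It called 31 of the tested genes (0.306%), and 12 of the 330 genes of the mean comparison (3.64%). Of the same 330 genes, 103 had an unadjusted p under 0.05 in this F-test. Among the 31 genes called with all 4 effectors, 2 were called by this test, DDIT4 (adjusted p = 0.0156) and TFPI (adjusted p = 0.0141). DDIT4 fell most with enCRISPRi-LK (-3.51) and dCas9-KRAB (-2.78) and less with enCRISPRi-KL (-1.98) and dCas9-LSD1 (-1.92). For the 31 genes the 4 differences from sgGal4 spanned between 0.06 and 1.59 on the log2 scale, with a median span of 0.47, and a p that misses the threshold does not show that effectors acted alike. The 6 called genes with the smallest span relative to their change were FDFT1, RPL36, RPL8, SLC20A1, KSR1 and RPS23. Of these, RPL36, KSR1 and SLC20A1 were not yet described. In the order dCas9-KRAB, dCas9-LSD1, enCRISPRi-LK, enCRISPRi-KL, RPL36 was at 0.56, 0.6, 0.58 and 0.63 (mean 0.59, adjusted p = 0.00253 in limma). KSR1, a scaffold of the MAP kinase pathway, was at -0.96, -0.86, -0.94 and -0.94, and SLC20A1, a phosphate transporter, at -0.98, -0.95, -0.95 and -0.88. The summed β-like globin genes differed among the effectors (adjusted p = 1.84e-05), with -0.66, -0.55, -1.30 and -1.87 in the same order, and FN1, the gene of fibronectin, was called in the mean comparison (-0.76) although its differences were 0, -1.84, 0.80 and -2.0.

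The genes next to the off-target sites that the study measured were read as well. EP300 was at 19.8 and 20.6 TPM with sgGal4 and at 18.5, 21.0 and 23.3 TPM with sgHS2 (0.05, SE 0.191, adjusted p = 0.929), and ANKRD20A2 and ANKRD30BL were under the filter. GAPDH, a common reference gene, was at 1294 and 1777 TPM with sgGal4 and at 1430, 1656 and 2029 TPM with sgHS2 (0.14, adjusted p = 0.568; -0.09 after quantile normalization and without sgGal4 replicate 1). The filter at a mean of 1 TPM had MAG and DLL4 just inside, at 1.001 TPM, and KIAA0895 and TSLP just outside, at 0.997 TPM.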

How the data were processed

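RNA-seq of 10 K562 libraries in 5 labelled groups of 2 was used. The authors aligned reads to hg19 with STAR 2.5.2b, keeping reads with a single location, and deposited RSEM TPM for 20535 gene symbols per library. Depth is therefore unknown, and DESeq2, named in the methods, was not run because it needs counts. The methods name the Ovation system and the labels poly(A) selection and a directional NEBNext kit.

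The 10127 genes whose TPM averaged 1 or more across libraries were tested on log2(TPM + 1), a scale that understates changes of low genes, with limma 3.58.1 (R 4.3.3): 5 group means in 1 fit, 5 residual degrees of freedom, moderated variances that follow the mean level, and p-values adjusted by Benjamini-Hochberg over all tested genes. The contrasts were the mean of the 4 sgHS2 groups minus sgGal4, each group minus sgGal4, and an F-test among the sgHS2 groups. A gene was called at an adjusted p under 0.05. The β-like globin sum entered the fit as an added gene and was also tested by exact permutation (SciPy 1.17.1). The fit was first tested on simulated data.

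Members and gene lists were chosen with earlier results of these data known. Lists are described by counts and medians, with no set test. Named genes were the β-like globin genes, the 12 highest and 12 lowest of the genes called in all 4 comparisons without overlap (all if fewer), up to 6 called members of each list and a few regulators, the 6 with the lowest p among effectors, the 6 with the smallest relative span, off-target neighbours and the genes at the filter's edge. Gene positions came from GENCODE v44 on GRCh37, and promoters from RefSeq (GRCh38.p14), where 112 of the 150 lower and 128 of the 180 higher genes had an entry. Some list members are counted and not reported here by name. Replicate numbers were the only link between libraries of different groups. Alternatives were other filters, pseudocount, scalings, no trend, a replicate block, and leaving out each library or group.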

Additional observations from a re-analysis of the deposited data

Results flagged for a closer look

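The F-test among the 4 sgHS2 groups of the same limma fit called 31 genes. Given here are the 12 of these that were also called in the mean comparison, with HBG1, KDM1A and the globin sum from the named results, each with the adjusted p and the lowest and highest of the 4 differences from sgGal4 on the log2 scale. Of the genes of the effectors, ZNF10 (adjusted p = 4.06e-07) was at 0.44 with dCas9-KRAB, 5.80 with dCas9-LSD1, 3.88 with enCRISPRi-LK and 7.25 with enCRISPRi-KL, so that it was high in a group labelled without KRAB and near the controls in one labelled with it. KDM1A (adjusted p = 0.00393) was at -0.03, 1.66, 0 and -0.12 in the same order, so that neither dual group stood above the controls. Of the globin genes, the β-like sum (adjusted p = 1.84e-05) ran from -1.87 to -0.55, HBE1 (adjusted p = 0.000501) from -2.0 to -0.57, HBG2 (adjusted p = 0.00205) from -1.81 to -0.32, HBG1 (adjusted p = 0.0143) from -1.13 to 0.28 and HBZ, an embryonic α-like gene (adjusted p = 0.00152), from -0.28 to 1.21. FN1 (adjusted p = 2.46e-06) ran from -2.0 to 0.80, so its mean of -0.76 describes none of the groups. TFPI (adjusted p = 0.0141), DDIT4 (adjusted p = 0.0156) and MUC4, a mucin (adjusted p = 0.0143), were below 0 in all 4 groups, from -1.85 to -0.68, from -3.51 to -1.92 and from -2.35 to -0.63. MT-ND6 (adjusted p = 0.00972), DES, the gene of desmin (adjusted p = 0.0289), SPARC, a matrix protein (adjusted p = 0.0380), and SOD3, the extracellular superoxide dismutase (adjusted p = 0.0406), were above 0 in all 4 groups, from 0.26 to 1.04, from 0.45 to 1.93, from 0.30 to 2.38 and from 0.81 to 3.28. Groups of 2 libraries are too small for a test of outlying libraries.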

How the results depend on the processing

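Of 91 named genes called in the mean comparison, 23 kept the call and direction under every alternative in which they were tested (CHAC1 fell under the filter at 10 TPM), among them HBE1, APOC1, APOE, HMGCS1, IDI1, FDFT1, SQLE, MSMO1, INSIG1, SCD, CHAC1, DDIT4, ASNS and VEGFA, and so did 20 of the 28 named genes called in all 4 comparisons. The 330 calls became 185 with no filter, 99 with no mean-variance trend, 217 without the dCas9-KRAB group, 177 without the enCRISPRi-LK group and 200 with sgHS2 as 1 group, and 90 to 274 with 1 library left out. That 1-group fit gave the globin sum -1.093 (adjusted p = 0.0771). The 31 calls shared by 4 effectors became 11 with no filter, 47 without mitochondrial mRNAs, 3 with no trend, 11 with only the groups compared, and 4 to 64 with 1 library left out. For dCas9-KRAB, dCas9-LSD1, enCRISPRi-LK and enCRISPRi-KL, no filter gave 51, 37, 61 and 83 calls, no trend 14, 22, 15 and 75, only the groups compared 59, 25, 57 and 66, and leaving out 1 library 9 to 231, 16 to 139, 20 to 209 and 49 to 169. dCas9-LSD1 had 151 calls after quantile normalization and 139 without mitochondrial mRNAs. The test among effectors had 47 with quantile normalization, 8 with no trend, and 10 to 35 with 1 library left out. Apart from fewer libraries or groups in the fit, the cause was not tested.

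Reversed values were all uncalled. They were 0 for MT-ND4L and -0.09 for GAPDH after quantile normalization, -0.046 for EP300 without mitochondrial mRNAs, and 0.049 for GATA2 and -0.051 for KDM1A without the dCas9-LSD1 group. With 1 library left out, the log2 difference of GAPDH ran from -0.09 to 0.367 and the log2 difference of GATA2 from -0.157 to 0.101.

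Replicate numbers did not pair the libraries (r of deviations -0.021 to 0.023 over 10 pairs of groups). With a replicate block 255 genes were called in the mean comparison and 23 in all 4. With 2 libraries a group, TPM without read counts and 1 pair of controls, small changes and low genes are the least certain.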

Other observations

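Further called genes on none of the gene lists are given as examples, chosen after their values were seen. CYB5A, cytochrome b5, which donates electrons to desaturases and sterol oxidases, was at 1.76 and 0.23 TPM with sgGal4 and at 4.01, 7.86 and 11.01 TPM (lowest, median, highest) with sgHS2, a limma difference of 2.20 (SE 0.340, adjusted p = 0.00302). NEFH, a neurofilament gene, was at 3.47 and 3.87 TPM with sgGal4 and between 7.60 and 24.8 TPM with sgHS2 (1.77, adjusted p = 0.00117). LBH, a transcription cofactor, was at 2.02 and 2.99 TPM with sgGal4 and between 5.75 and 15.0 TPM with sgHS2 (1.73, adjusted p = 0.00319). In each case all 8 sgHS2 libraries were above both sgGal4 libraries.

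Among decreases of the same kind, SCG3, a secretory granule protein, was at 84.3 and 100 TPM with sgGal4 and at 12.4, 26.5 and 49.9 TPM with sgHS2 (-1.71, SE 0.202, adjusted p = 0.000514). KLHL24 (-1.98, adjusted p = 0.00984) and PNRC1 (-1.59, adjusted p = 0.0266) also fell without overlap.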
